A study of Homo sapiens with 6 samples.

Results

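Homologous recombination and Fanconi repair genes were looked up in the lists of chromatin bound by N-Myc and by JMJD6 in neuroblastoma cells. The 31 genes were chosen by name as a functional class, with earlier results of these data known. They came from 20136 protein-coding genes of the annotation, of which 7518 were named in at least 1 of the lists. A gene was counted when a promoter, typical enhancer or super-enhancer row carried its symbol, and a gene without a row was counted as not listed. The human neuroblastoma line CHP-134, with no drug or genetic change named in the labels, was studied by chromatin immunoprecipitation with sequencing (ChIP-seq), with an N-Myc antibody in 3 samples and a JMJD6 antibody in 3 samples. N-Myc, the product of MYCN, is a transcription factor, and JMJD6 is a jumonji domain protein with hydroxylase activity that has also been described as a histone arginine demethylase. The study describes CHP-134 as carrying amplified MYCN and a gained JMJD6 gene. The comparison asked where the pair of proteins occupy the same regulatory regions. The N-Myc chromatin was cross-linked with formaldehyde alone, and the JMJD6 chromatin with disuccinimidyl glutarate followed by formaldehyde, so the protein and the cross-linking cannot be told apart. The 12 lists give positions common to the 3 samples of an antibody and hold no height, count or score. No spread between samples, depth or test could be had, and every value below is a count or a distance. The N-Myc lists held 10172 peaks, 5114 promoters, 4649 typical enhancers and 162 super-enhancers, and the JMJD6 lists held 561, 177, 96 and 9. Coordinates are on GRCh37, counted from 1. All regions come from 1 cell line.

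Homologous recombination repairs a DNA break or a broken replication fork by copying the sister chromatid. The MRE11, RAD50 and NBN proteins detect the break, the ATM and ATR kinases signal it to CHEK1 and CHEK2, nucleases expose single-stranded ends, and BRCA1, PALB2 and BRCA2 with their helpers prepare these ends for strand exchange. The Fanconi anaemia proteins detect cross-links between the DNA strands and ubiquitinate FANCD2 and FANCI, which starts incision of the cross-link and recombination. MYC family proteins bind the E-box, whose canonical form is CACGTG, and also bind the noncanonical form CACGCG.

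Of the 31 genes, 17 (54.8%) had a common N-Myc peak within a listed promoter, against 17.1% of all protein-coding genes. A listed promoter spans 1 kb on each side of a start site. The 18 peaks in these promoters included 8 with the canonical E-box (44.4%), against 36.9% of all N-Myc promoter peaks. The stretches below show this motif, in capitals, in 7 of these 8 peaks. In the 7 peaks shown it lay 231 to 656 bp from the listed start. The peak of NBN is not shown, and its motif lay 1090 bp from the listed start. The stretches are read along each gene's own strand, 40 bases on each side of the motif, or 12 bases where an exon lies near.
ATR, chr3:142297384-142297469, minus strand: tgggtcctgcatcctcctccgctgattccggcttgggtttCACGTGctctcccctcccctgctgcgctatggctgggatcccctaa
FANCF, chr11:22647603-22647632, minus strand: ggcatcatctcgCACGTGgttccggaaatt
RAD54L, chr1:46712695-46712724, plus strand: gcccgagcccgcCACGTGgcagtctgggcc
BLM, chr15:91260021-91260106, plus strand: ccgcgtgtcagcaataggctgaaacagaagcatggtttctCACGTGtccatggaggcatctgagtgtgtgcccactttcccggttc
MRE11A, chr11:94226515-94226600, minus strand: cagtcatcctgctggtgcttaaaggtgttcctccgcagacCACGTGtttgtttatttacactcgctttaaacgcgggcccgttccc
XRCC2, chr7:152372615-152372700, minus strand: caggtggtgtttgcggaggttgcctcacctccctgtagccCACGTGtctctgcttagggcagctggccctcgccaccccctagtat
PALB2, chr16:23652243-23652272, minus strand: tagcgtggtgctCACGTGgtggcgtttaaa
The first 3 of these motifs lay within 100 bp of the peak centre, at 53 bp in ATR, 81 bp in FANCF and 37 bp in RAD54L, and the others lay 219 to 339 bp from it. In BLM, the noncanonical form, read as CGCGTG on this strand, stood near the left end of the same stretch.

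The noncanonical E-box, CACGCG or its complement CGCGTG in capitals, is shown for 5 of the 6 peaks that held it and lacked the canonical form.
FANCG, chr9:35080170-35080255, minus strand: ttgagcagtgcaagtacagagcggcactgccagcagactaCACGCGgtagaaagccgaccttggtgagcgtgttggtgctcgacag
BRCA2, chr13:32890271-32890300, plus strand: gtccccactagcCACGCGtcactggttagc
CHEK2, chr22:29137745-29137774, minus strand: tccaggtgggctCACGCGgtgagtcatatg
FANCI, chr15:89786994-89787079, plus strand: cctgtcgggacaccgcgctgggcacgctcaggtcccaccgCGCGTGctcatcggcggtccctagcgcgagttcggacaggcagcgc
ATM, chr11:108093640-108093725, plus strand: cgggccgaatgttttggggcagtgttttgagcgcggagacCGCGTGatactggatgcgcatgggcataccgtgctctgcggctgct
In FANCG the motif lay 9 bp from the peak centre and in BRCA2 66 bp, and in the other 3 it lay 208 to 382 bp away.

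Promoters of 19 of the 31 genes (61.3%) were in the N-Myc list, and 12 were not. Over all protein-coding genes, 17.5% had a promoter in this list. Counting a promoter only where it held a common N-Myc peak left 17 genes (54.8%) against 17.1% of all genes, because the listed promoters of XRCC3 and EXO1 held none. The lists contained 131 such N-Myc promoters in all. No member had a promoter in the JMJD6 list, where 0.626% of all genes were listed, so that 0 of 31 is near the background. Typical enhancers bound by N-Myc were assigned to 22 members (71.0%) against 31.9% of all genes, and those bound by JMJD6 to 1 member, FANCG (3.23%), against 0.909%. No member was assigned an N-Myc super-enhancer, which 1.31% of all genes had, or a JMJD6 super-enhancer, which 0.0745% had. Both kinds of N-Myc region were listed for 17 members, a promoter alone for 2 (PALB2 and FANCI), an enhancer alone for 5 (RAD51B, RAD51C, FANCA, FANCC and FANCD2) and neither for 7 (RAD51D, RAD54B, RAD50, FANCE, FANCM, BRIP1 and PARP1). These combinations were not counted over all genes. In 16 of the 17 members with both kinds, an enhancer overlapped the gene's own listed promoter, so both names cover the same place.

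**Figure D1:**
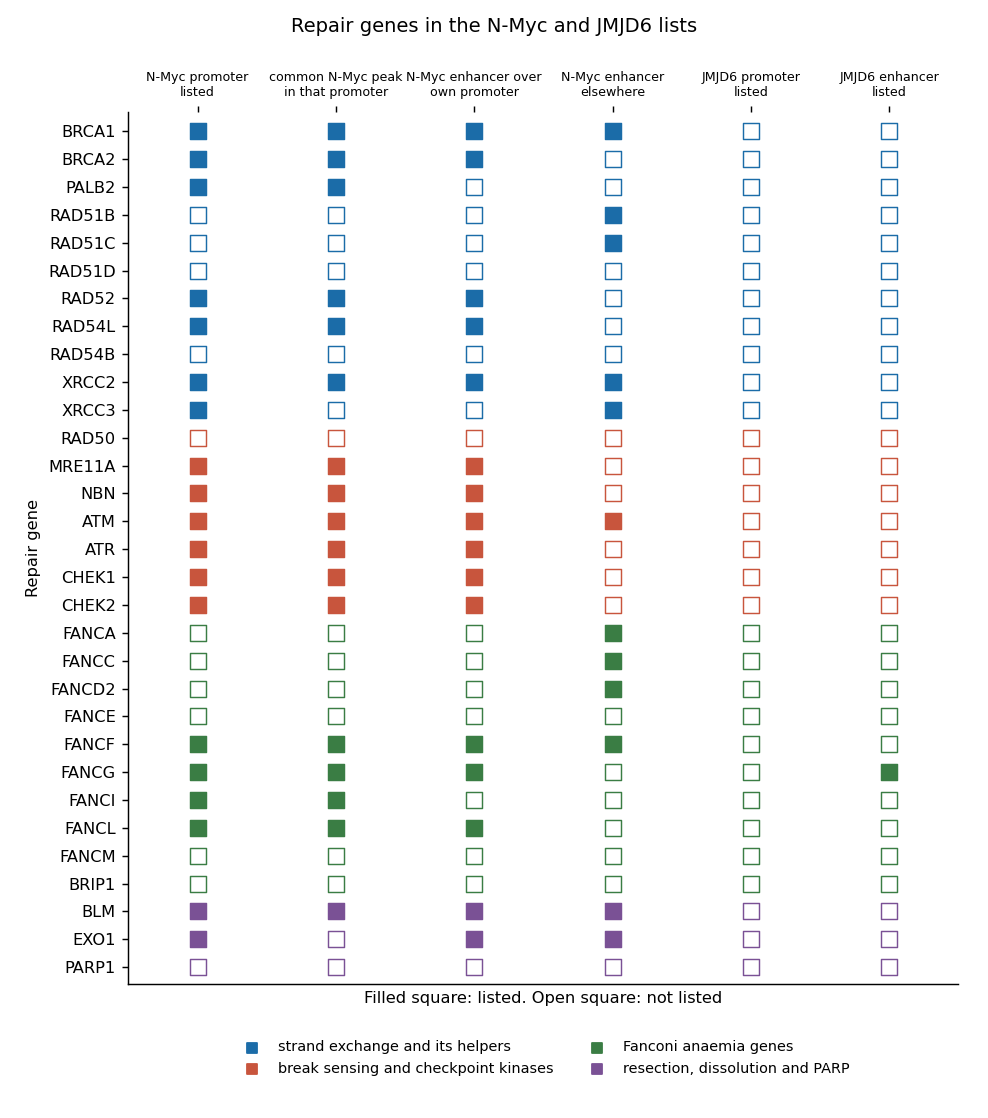
Presence of the 31 repair genes (rows) in each kind of list (columns), with a filled square for listed and an open square for not listed, and colours for the functional groups. The promoter column is filled for 19 genes, the columns for JMJD6 are open except for the enhancer of FANCG.

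Strand exchange and its helpers were the first group, with 7 of 11 genes in the N-Myc promoter list (63.6%), 6 of them with a peak. BRCA1, a ubiquitin ligase subunit that promotes end resection, had 4 listed start sites and 1 peak of 633 bp at chr17:41276454-41277086, which ran from 254 to 886 bp downstream of the nearest of them. The same interval lay on the listed promoter of NBR2, a noncoding gene transcribed in the opposite direction. Here and at the other shared promoters below, the peak cannot be assigned to either gene. Of its bases, 33.5% lay in stretches with a copy elsewhere in the genome at 95% identity or more over at least 75 bases, and none of the other 17 promoter peaks had such a copy.

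BRCA2, which acts on single-stranded DNA before strand exchange, had a peak of 586 bp at chr13:32889927-32890512, 311 to 896 bp downstream of its start. PALB2, which joins BRCA1 to BRCA2, had a peak of 890 bp at chr16:23652032-23652921 that covered its start and the promoter of DCTN5, a dynactin subunit gene on the opposite strand. It held 1 canonical and 2 noncanonical E-boxes, and was the member peak with the most E-boxes. RAD52, a protein of single-strand annealing, had a peak of 714 bp at chr12:1058635-1059348 across its start, with neither E-box form.

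RAD54L, a DNA translocase of strand exchange, was the only member with separate peaks on 1 promoter. The upstream peak of 469 bp at chr1:46712513-46712981 ended 385 bp before the start and held the canonical E-box, while the other, of 426 bp at chr1:46713195-46713620, covered the start and held the noncanonical form. XRCC2, a helper of strand exchange, had a peak of 998 bp at chr7:152371883-152372880, 370 to 1367 bp downstream of the start, with 63.2% of its length inside the promoter. The promoter of XRCC3, another helper, was listed without a peak, and its nearest N-Myc peak, chr14:104169362-104170191, lay 11.6 kb downstream of its start with 2 canonical E-boxes. RAD51B, RAD51C, RAD51D and the translocase gene RAD54B were not listed, so these helpers divided into XRCC2 and XRCC3 with a listed promoter and RAD51B, RAD51C and RAD51D without.

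Break sensors and checkpoint kinases had the highest share of the 4 groups, 6 of 7 genes (85.7%), all 6 with a peak. The groups hold 3 to 11 genes, and the differences between their shares were not tested. The nuclease gene MRE11A, written MRE11 in the promoter list, had a peak of 938 bp at chr11:94226422-94227359 over its start and over the promoter of ANKRD49 on the opposite strand. NBN, the partner that recruits ATM to breaks, had the widest member peak, 1086 bp at chr8:90995401-90996486. It lay 413 to 1498 bp downstream of the nearest start, in the annotation's intron, with 54.1% of its length inside the promoter and a canonical E-box 135 bp from its centre. RAD50, the ATPase that completes the complex, was not listed, and its nearest N-Myc peak lay 98.7 kb from its start.

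ATM, the kinase that answers to breaks, had a peak of 615 bp at chr11:108093584-108094198, which began 26 bp after the nearest listed start and also lay on the promoter of NPAT, an activator of histone genes on the opposite strand. ATR, the kinase that answers to exposed single-stranded DNA, had a peak of 720 bp at chr3:142297120-142297839 across its start. Its downstream kinase CHEK1 had 5 listed starts, of which 3 lay inside a peak of 866 bp at chr11:125495637-125496502 that held neither E-box form. CHEK2, the kinase downstream of ATM, had a peak of 916 bp at chr22:29137605-29138520, which reached 698 bp upstream of its start across the promoter of HSCB, an iron-sulfur cluster cochaperone gene. Both kinases and both of their effectors were thus listed with a peak.

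The Fanconi group, BRIP1 and the members named FANC, had the lowest share of the 4 groups, 4 of 10 (40%). All 4 listed genes had a peak. Each gene was counted in a single group, and BRCA1, BRCA2, PALB2, XRCC2 and RAD51C were counted with strand exchange. The ranking holds for this grouping only. Of the core complex, FANCF (chr11:22647343-22647730, 388 bp), FANCG (chr9:35080006-35080401, 396 bp) and the ubiquitin ligase subunit FANCL (chr2:58468243-58468733, 491 bp) were listed, while FANCA, FANCC and FANCE were not. These 3 peaks were among the narrower ones of the members, and each covered the listed start. FANCI, which the complex ubiquitinates together with FANCD2, had a peak of 1078 bp at chr15:89786880-89787957 from 313 bp upstream to 764 bp downstream of its start. Its partner FANCD2 was not listed, nor were the translocase gene FANCM and the helicase gene BRIP1.

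Of the last 3 genes, BLM and EXO1 were listed (66.7%) and PARP1 was not. BLM, the helicase that dissolves recombination intermediates, had a peak of 862 bp at chr15:91259972-91260833 over its start and over the promoter of CRTC3-AS1, an antisense RNA gene. EXO1, a nuclease of end resection, had its listed start at position 242012032 of chromosome 1, but no common N-Myc peak lay nearer than 124 kb. PARP1 encodes a sensor of strand breaks, and its nearest N-Myc peak was 140 kb away.

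**Figure D2:**
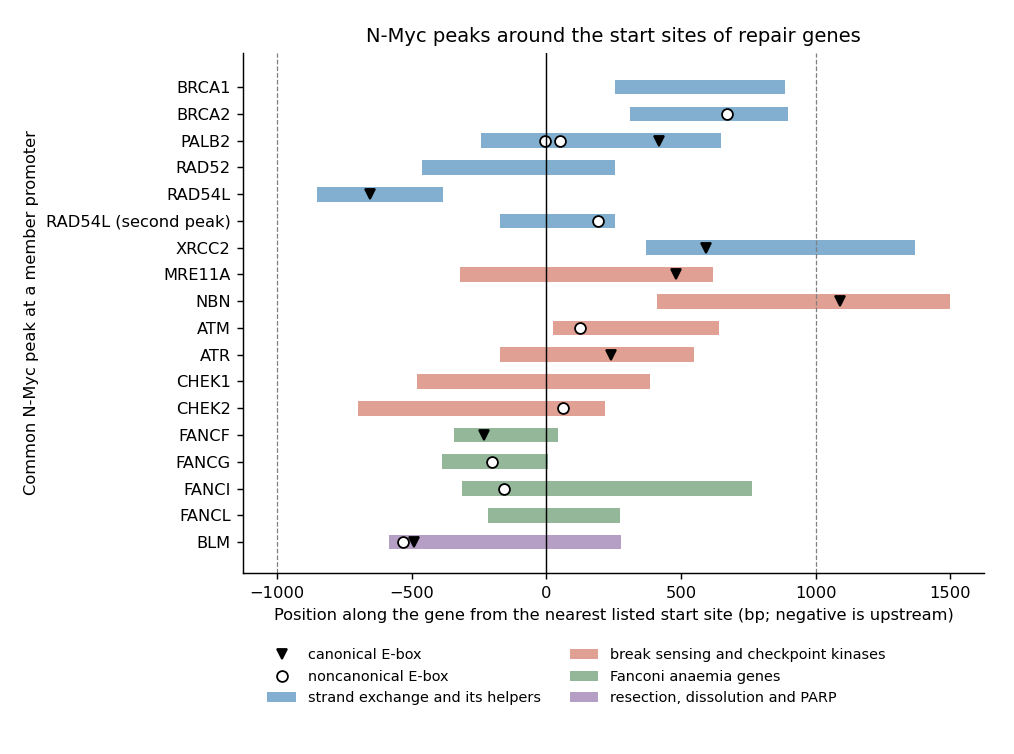
Extent of the 18 common N-Myc peaks at 17 repair gene promoters along the gene from the nearest listed start site in bp (solid line at 0, dashed lines at 1000 bp on each side), with canonical E-boxes as triangles and noncanonical E-boxes as open circles. The peaks of BRCA1, BRCA2, XRCC2, NBN and ATM lie wholly downstream of that start, and those of BRCA1 and ATM lie between listed starts.

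Over the 18 member peaks, 12 covered a listed start, 5 lay wholly downstream of the nearest one and 1 wholly upstream. Of these 5, the peaks of BRCA1 and ATM lay between listed starts of their genes. The start of ATM taken as canonical in the annotation lay inside its peak. The centre was downstream in 11 and upstream in 7, at a median distance of 196 bp, against 185 bp over all 3550 N-Myc peaks on listed promoters. The centre fell in an untranslated region in 8, an intron in 7, a coding exon in 1 and outside coding genes in 2. For FANCF that intron belonged to GAS2, and for CHEK2 the untranslated region belonged to HSCB. Promoters on both strands lay under 6 of the 18 peaks (33.3%), those of BRCA1, PALB2, MRE11A, ATM, CHEK2 and BLM, against 22.0% of all promoter peaks.

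Member peaks were wide for N-Myc promoter peaks. Their median was 717 bp, from 388 bp in FANCF to 1086 bp in NBN, against a median of 452 bp over the 3550 promoter peaks (range 189 to 2162 bp) and 418 bp over all 10172 N-Myc peaks. The upper quartile of the promoter peaks was 612 bp and their 90th percentile 805 bp, and 12 of the 18 member peaks were wider than the first value and 8 wider than the second. Those 8 were NBN, FANCI, XRCC2, MRE11A, CHEK2, PALB2, CHEK1 and BLM. The peaks of FANCF and FANCG and the downstream peak of RAD54L were narrower than the median. Width is that of the common interval and says nothing of the height of a peak.

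**Figure D3:**
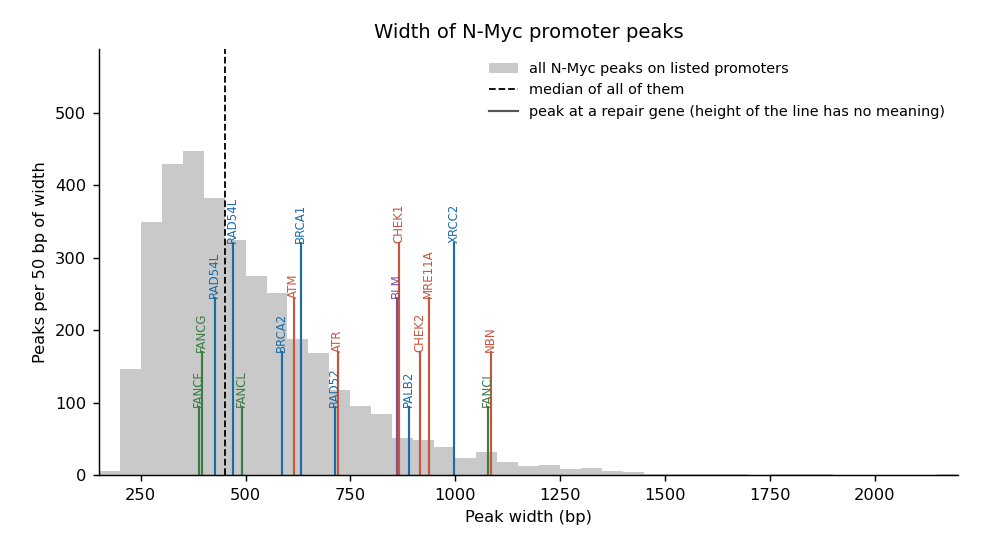
Width in bp of all 3550 N-Myc peaks on listed promoters (grey, number of peaks in each bin of 50 bp) and of the 18 peaks at repair genes (coloured lines, whose height has no meaning). The dashed line is the median of all promoter peaks, 452 bp, and 15 of the 18 lines lie above it.

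A canonical E-box, CACGTG, was present in 8 of the 18 member peaks (44.4%) against 36.9% of all promoter peaks. Since wider peaks have more room for a motif, the 100 bp on each side of every peak centre were compared as well, and there 3 of 18 (16.7%) held it against 23.0%. The noncanonical form was present in 8 peaks (44.4% against 29.2%), and in the central windows in 2 (11.1% against 16.5%). One form or the other was found in 14 peaks (77.8% against 56.9%), both in PALB2 and BLM, and neither in 4, those of BRCA1, RAD52, CHEK1 and FANCL. In windows of equal length the counts at members, 3 and 2 peaks, were thus near the shares of all promoter peaks, and the differences were not tested. The centre is the middle of the common interval, and the lists hold no summit.

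Motifs common in cell cycle promoters were searched on both strands too. The CCAAT box, CCAAT, bound by NF-Y, was present in 15 member peaks (83.3% against 48.5%) and in 7 central windows (38.9% against 26.0%). The cell cycle genes homology region, TTTGAA, was present in 7 peaks (38.9% against 20.1%) and in 2 central windows (11.1% against 7.97%). An E2F site, TTTGGCGC or TTTCGCGC, was present in 1 peak (5.56% against 3.21%) and in no central window, against 1.44%. A match is a match of letters and was not tested for binding.

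The RefSeq promoters, from 250 bases before to 50 after the start on GRCh38.p14, could be matched for 28 members, all except NBN, RAD54B and FANCI. The canonical E-box was present in 1 of 15 members with an N-Myc promoter peak, BRCA2, and in 2 of 13 without, RAD50 and FANCC, against 8.88% of 15843 coding genes. For BRCA2, whose N-Myc peak began 311 bp downstream of the listed start and held the noncanonical form, the canonical E-box of this window thus stood outside the peak. The noncanonical form was present in 3 of 15 and 1 of 13 (14.8% of all), the CCAAT box in 8 of 15 and 4 of 13 (36.4%), TTTGAA in 1 of 15 and 2 of 13 (12.1%) and the E2F site in 0 of 15 and 2 of 13 (1.67%).

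The nearest N-Myc peak was measured from 1 canonical start site of each gene in the annotation. Its median distance was 0.409 kb over the members and 53.8 kb over 18971 autosomal coding genes. Since 17 of the 31 members had a common peak in a listed promoter, the median of the members largely restates that count. A peak lay within 100 kb of 27 of 31 members, against 63.7% of the genes. The 12 members without a listed promoter had their nearest peak 11.1 to 156 kb away, with a median of 65.7 kb. In 4 of them the peak lay inside the gene. It was in an intron of RAD51B (156 kb from the start), FANCC (92.3 kb) and BRIP1 (53.1 kb), and over a coding exon of FANCA (chr16:89871506-89871984, 11.1 kb). The distance was 13.0 kb for RAD51C, 22.4 kb for RAD51D, 78.4 kb for RAD54B, 39.2 kb for FANCD2, 15.9 kb for FANCE and 117 kb for FANCM. The unlisted members therefore had no N-Myc peak within 10 kb of this start site.

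**Figure D4:**
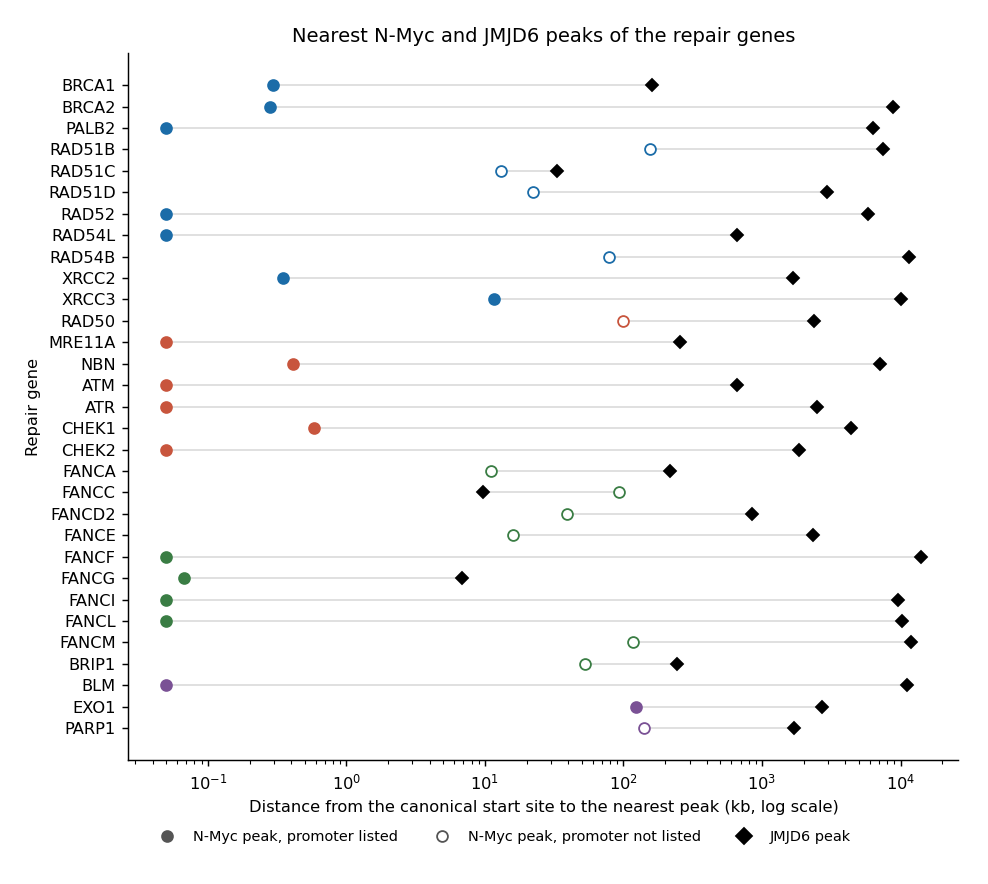
Distance in kb on a log scale from the canonical start site of each repair gene to the nearest N-Myc peak (circles, filled where the promoter is listed) and the nearest JMJD6 peak (diamonds), with a start inside a peak drawn at 0.05 kb. The JMJD6 peak is the nearer one at FANCC, 9.65 kb against 92.3 kb.

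Typical enhancers gave 35 assignments to the 22 members and held 43 common N-Myc peaks. The enhancer over the promoter of EXO1 held no common N-Myc peak, like that promoter itself. In 16 genes 1 of these enhancers overlapped the gene's own listed promoter, and over all assignments 22 enhancers (62.9%) overlapped some N-Myc promoter, against 52.8% of the 4649 N-Myc enhancers, so many of these regions are the promoters described above under another name. Their median length was 2.30 kb (199 to 23907 bp) against 2.55 kb. The member was the nearer of the genes named in 22 of the 35. An enhancer apart from any N-Myc promoter was assigned to 9 members (29.0%) against 14.4% of all genes. These were RAD51B, XRCC2, XRCC3, ATM, FANCA, FANCC, FANCF, BLM and EXO1.

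FANCC had the most, 6 enhancers with 10 peaks, listed 144 to 450 kb from its start. In 4 of them another gene, C9orf3 or PTCH1, the receptor of hedgehog ligands, was the nearer one. The intronic RAD51B enhancer was listed 201 kb from the start and that of XRCC3 9.03 kb. XRCC2 had distal enhancers listed at 60.5 and 206 kb, the farther one nearer to KMT2C and over the N-Myc promoter of LINC01003. The distal enhancer of BLM was listed 79.2 kb upstream of the start, in an intron of CRTC3. FANCF had further enhancers listed at 193 and 276 kb, nearer to SLC17A6, a vesicular glutamate transporter gene. Except for those of XRCC3 and FANCA, the enhancers that overlapped no N-Myc promoter were thus listed 55.8 kb or further from the repair gene.

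ATM had an enhancer of 2.24 kb listed 55.8 kb downstream of its start, with an N-Myc peak in an ATM intron, and FANCA one of 16.7 kb listed 8.95 kb downstream, around the exonic peak. The enhancers over the promoters of RAD52 and NBN each held a further N-Myc peak within the gene, chr12:1062417-1062742 and chr8:90985110-90985523, both in introns. BRCA1 had a second enhancer of 23.9 kb, 94.9 kb from its start, which lay much nearer to RND2, which encodes a small GTPase. RAD51C was assigned an enhancer over the promoter of PPM1E, a phosphatase gene, and FANCD2 one over the promoter of EMC3-AS1, 39.1 kb from its start. An enhancer assignment at such distances names a neighbour and was not tested as a regulatory link.

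JMJD6 was listed for the members at 1 enhancer. The enhancer chr9:35070927-35080510, 9584 bp long and in the list of regions bound by both proteins, was assigned to VCP, which encodes an ATPase that extracts ubiquitinated proteins, and to FANCG. It held 1 peak of each protein. The JMJD6 peak, chr9:35072588-35073085 (498 bp), covered listed starts of VCP, whose promoter was in the JMJD6 list and not in the N-Myc list. The N-Myc peak, chr9:35080006-35080401, covered the listed start of FANCG, and 6920 bp separated the pair of peaks. The JMJD6 peak held neither E-box form. The shared enhancer thus held the proteins at the promoters of different genes and not at the same position.

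Over the members, the median distance to a JMJD6 peak was 2515 kb, against 2389 kb over all autosomal coding genes. A JMJD6 peak lay within 100 kb of 3 members, FANCG at 6.85 kb, FANCC at 9.65 kb and RAD51C at 33.0 kb, where 5.61% of all genes had one. The peak near FANCC, chr9:98089638-98090023, lay upstream of the canonical start but in an intron of the gene as annotated with all its starts, and was the only JMJD6 peak within a member's gene. It was in no JMJD6 region assigned to FANCC. No JMJD6 peak overlapped any of the 18 N-Myc promoter peaks of the members, and 1.38% of all 3550 promoter peaks were overlapped by one, so that 0 of 18 is near the background.

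Other repair genes were counted in the same way. Of 75 genes, 31 (41.3%) had a promoter in the N-Myc list and none in the JMJD6 list. Other recombination and Fanconi genes had 15 of 41 (36.6%), among them RPA2 and RPA3, whose complex coats single-stranded DNA and whose partner RPA1 was not listed, UBE2T and USP1, which add and remove ubiquitin in the Fanconi pathway, and the end-joining polymerase gene POLQ. BARD1, the partner of BRCA1, and RBBP8, which starts resection, were not listed. End joining genes had 7 of 10 (70%), with the kinase gene PRKDC and its partners XRCC5 and XRCC6 among them. Nucleotide excision repair had 5 of 12 (41.7%) and base excision repair 4 of 12 (33.3%). The shares of these lists ran from 33.3 to 70%, each above the 17.5% of all genes, and the 61.3% of the members lay within that range.

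**Figure D5:**
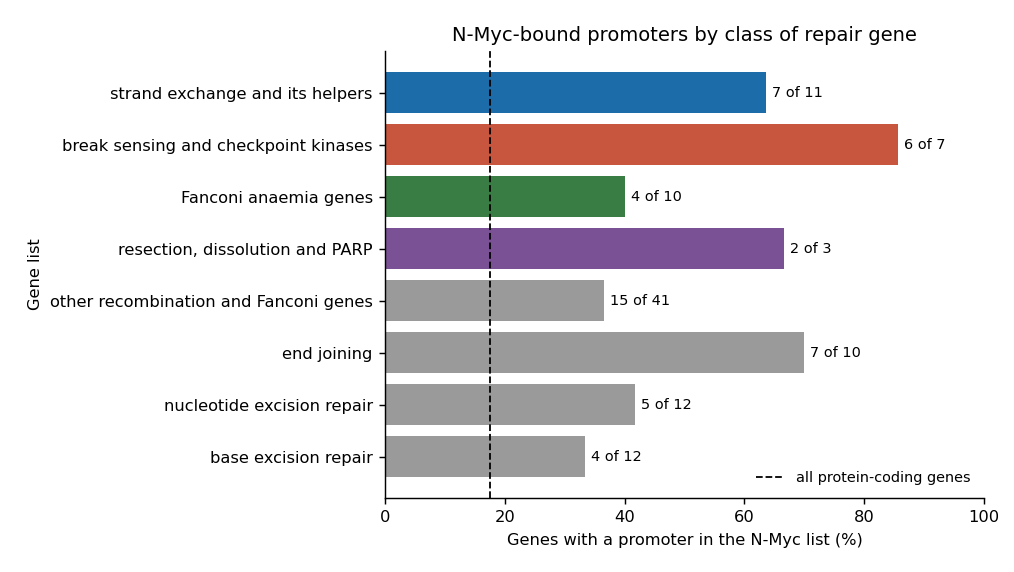
Percentage of genes with a promoter in the N-Myc list for the 4 groups of members (coloured) and 4 other lists of repair genes (grey), with the count beside each bar and the share over all protein-coding genes, 17.5%, as a dashed line. Every bar passes the line, from 4 of 12 base excision repair genes to 6 of 7 break sensors and checkpoint kinases.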

How the data were processed

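Per the labels and the methods of the study, the authors mapped reads to hg19 (BWA, SAMtools, bedtools) and ran MACS2 2.1.1.20160309 on each sample with input DNA as control and a q-value maximum of 0.05. Peaks common to the 3 samples were kept, promoters were taken 1 kb on each side of RefSeq starts, enhancers came from ROSE on H3K27ac (12.5 kb stitching) and nearest genes from GREAT. The study states that H3K27ac peaks within 1 kb of start sites were subtracted before stitching. The enhancer lists nevertheless include regions over listed promoters. The deposited values are positions in bp, with no depth, height or score, so no precision, replicate spread or q-value could be had.

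The members and gene lists were chosen with earlier results of these data known, so no test was made and shares over all genes stand beside each count. All members were named, with genes sharing their peaks or enhancers and with genes of the other repair lists that were picked after their values were seen. Some repair genes are not reported here. Symbols were matched through RefSeq synonyms and starts through GENCODE version 44 on GRCh37. The start of 26 of 29 member promoters (89.7%) lay within 100 bp of an annotated one. Overlap meant at least 1 bp. Motifs were counted on both strands. Copies of peaks were searched with BLAST 2.17.0. Python 3.11.15, pysam 0.24.0, samtools 1.23.1 and matplotlib 3.10.9 were used, and the counting was tested on simulated data. Alternatives covered the overlap, peak width, window, start sites, enhancer assignment and motif definition.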

Additional observations from a re-analysis of the deposited data

How the results depend on the processing

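The count of 19 members with an N-Myc promoter was 13 to 18 under the alternatives. It was 18 with annotated starts (without EXO1), 17 with 50% of the peak inside the promoter, 15 with peaks at least as wide as the median (without XRCC3, FANCF, FANCG and EXO1) and 13 within 250 bp of the start (without BRCA1, BRCA2, XRCC2, XRCC3, NBN and EXO1). With annotated starts, XRCC3 was kept through a start other than its listed one, whose promoter held no common peak. The requirement of a common peak, added after seeing the data, gave 17. The share over all genes under these settings was 20.8, 16.7, 10.5, 13.9 and 17.1% in the same order, and that of the listed promoters was 18.4% over autosomal genes alone. The 22 members with an N-Myc enhancer fell to 9 without enhancers over an N-Myc promoter (14.4% of all genes), and were 18 by the nearer gene (19.2%) and 20 within 100 kb (24.7%). The JMJD6 promoter count of 0 rose to 2, FANCC and FANCG, within 10 kb of an annotated start (1.33% of all genes), and the 1 JMJD6 enhancer became 0 by the nearer gene, VCP. Canonical E-boxes in 8 peaks became 3 near the centre, a shorter window, and 14 with either form. The median width of 717 bp was the same with 50% of the peak inside. No paired analysis was possible because the lists hold no column per sample, which also means that no sample could be left out and no stricter score applied.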
